A study of Homo sapiens with 8 samples.

Results

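The 6 genes described here act in or beside the plasminogen activator system and were followed in MEG-01 cells, an established human megakaryoblast line: the activators PLAU (urokinase) and PLAT (tissue plasminogen activator), the urokinase receptor PLAUR, and the serpins SERPINB2, SERPINE2 and SERPINB6. They were found by gene symbol among the 60754 genes of the deposited tables, and all 6 were among the 17314 genes with enough counts to be tested. The cells were left untreated, or were given the phorbol ester PMA (phorbol 12-myristate 13-acetate) at 100 nM, PMA at 100 nM with Ceefourin 2 at 20 µM, or Ceefourin 2 alone, with 2 libraries in each of the 4 groups. Treatment lasted 48 hours, and the labels state no dose for Ceefourin 2 by itself. No label says whether the 2 libraries of a group came from separate cultures, so the spread between them may be technical. All groups are 1 cell line, and Ceefourin 2 is an inhibitor of the transporter ABCC4. The design asks how each gene's RNA differs with PMA, with Ceefourin 2, and with Ceefourin 2 on top of PMA.

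Plasmin, the protease that dissolves fibrin, is cut from plasminogen by urokinase and by tissue plasminogen activator. PLAUR holds urokinase at the cell surface, and secreted serpins block the activators by binding to them irreversibly. Phorbol esters activate protein kinase C, and in megakaryoblastic lines they are used to drive differentiation towards megakaryocytes, whose platelets carry several of these proteins. SERPINB2 is plasminogen activator inhibitor 2, a serpin that is largely kept inside cells. SERPINE2 (protease nexin 1) inhibits thrombin, urokinase and tissue plasminogen activator, and SERPINB6 is an intracellular serpin that inhibits cathepsin G and other serine proteases.

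The genes were chosen with results from all 4 groups known, so their own levels and differences are given as a description and carry no p. Levels are given in TPM (transcript abundance scaled to a fixed total per library), which allow for gene length. Differences are log2 fold changes of counts from edgeR with their standard errors (SE), and a gene is called where edgeR's adjusted p over all tested genes was below 0.05.

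Promoter windows of SERPINB2, PLAUR and PLAU, all called higher with PMA, are shown because phorbol esters are known to act on genes through AP-1, a transcription factor that binds TGANTCA. PLAT had a larger PMA difference than PLAUR or PLAU, but its sequence was not used here. Each window is the 250 bases just before a RefSeq transcript start (GRCh38.p14), read on the gene's strand, with matches to TGANTCA and to the TATA box TATAAA in capitals. The SERPINB2 window is chr18:63887455-63887704 (plus strand), that of PLAUR is chr19:43670170-43670419 (minus strand), and that of PLAU is chr10:73910882-73911131 (plus strand), before the downstream of 2 RefSeq starts.
SERPINB2: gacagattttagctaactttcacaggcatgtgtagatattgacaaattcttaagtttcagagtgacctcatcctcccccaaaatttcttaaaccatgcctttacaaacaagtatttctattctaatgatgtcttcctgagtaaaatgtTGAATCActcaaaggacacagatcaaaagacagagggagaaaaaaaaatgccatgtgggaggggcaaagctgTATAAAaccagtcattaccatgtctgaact
PLAUR: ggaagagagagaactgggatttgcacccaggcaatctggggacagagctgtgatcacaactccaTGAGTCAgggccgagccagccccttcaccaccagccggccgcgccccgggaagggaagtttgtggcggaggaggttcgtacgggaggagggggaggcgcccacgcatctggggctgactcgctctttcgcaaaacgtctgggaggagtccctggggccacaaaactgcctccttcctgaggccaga
PLAU: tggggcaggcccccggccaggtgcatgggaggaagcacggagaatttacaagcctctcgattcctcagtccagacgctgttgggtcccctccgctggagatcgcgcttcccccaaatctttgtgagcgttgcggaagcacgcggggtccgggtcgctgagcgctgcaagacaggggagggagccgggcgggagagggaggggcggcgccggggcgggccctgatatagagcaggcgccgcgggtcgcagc
The SERPINB2 window holds TGAATCA 102 to 96 bases before the start and TATAAA 30 to 25 bases before it. The PLAUR window holds TGAGTCA 186 to 180 bases before its start and no TATAAA. Neither PLAU window holds either motif, nor do the 2 windows of SERPINE2 or the 4 of SERPINB6. TGANTCA occurred in 6.57% and TATAAA, on either strand, in 10.7% of 35116 windows of the same length. None of the 10 windows held the cyclic AMP response element TGACGTCA (1.65% of all windows) or the GATA motif AGATAA on either strand (9.17%). These matches describe the letters of the windows and say nothing on binding in these cells.

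In GRCh38 (GENCODE annotation), SERPINB2 lies on chromosome 18 from 63871692 to 63903890, PLAU on chromosome 10 from 73909177 to 73917497, and PLAUR on chromosome 19 from 43646095 to 43670547. SERPINE2 lies on chromosome 2 from 223975112 to 224039319 and SERPINB6 on chromosome 6 from 2948159 to 2972165. The values are per gene and cover all exons. The SERPINB2 model overlaps that of SERPINB10 on the same strand, and the PLAU model overlaps C10orf55 on the opposite strand. Reads of SERPINB2 and SERPINB10 could be shared under any strand setting. The sources used here do not give RSEM's strand setting, so reads of PLAU and C10orf55 could be shared too. The overlapping genes were low, with SERPINB10 at no more than 0.315 ± 0.11 TPM and C10orf55 at no more than 0.095 ± 0.078 TPM (SD, n = 2) in any group.

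The libraries held 44430292 to 89950886 expected counts. Of 14 megakaryocyte and platelet markers, 13 could be tested and all 13 were called higher after PMA, with a summed level of 685 to 694 TPM in untreated and 1851 to 2006 TPM in PMA libraries; PF4, a defining platelet gene, was listed at 0 except with PMA plus Ceefourin 2. Markers of other cell types moved too. Of 8 tested monocyte and macrophage markers, 4 were higher and 2 lower after PMA. SERPINB2 and PLAUR are known to be high in that lineage. The sum over all 14 listed was 220 to 221 TPM in untreated and 422 to 471 TPM in PMA libraries. CD68 made up most of it, at 164 ± 3.7 TPM in untreated and 416 ± 34 TPM in PMA libraries (SD, n = 2). FCGR1A went from 0.74 ± 0.042 to 6.44 ± 0.25 TPM, LYZ from 35.1 ± 0.11 to 21.8 ± 0.90 TPM and ITGAM from 20.4 ± 4.1 to 0.95 ± 0.17 TPM. The defining genes CD163, MARCO and FCN1 were listed at 0 in all 8 libraries. Of 11 tested erythroid markers, 3 were higher and 7 lower after PMA, with sums of 9784 to 10711 and 31750 to 38237 TPM, and 9 were lower with Ceefourin 2 alone, at a sum of 4723 to 5085 TPM. With Ceefourin 2 on top of PMA, none of the monocyte or erythroid markers was called, while of 6 mast cell and basophil markers 1 was higher and 2 were lower. The sum of those 6 was 606 to 677 TPM in PMA and 264 to 276 TPM in PMA plus Ceefourin 2 libraries, with the IgE receptor chain FCER1A at 282 ± 69 and 38.1 ± 8.8 TPM and the stem cell factor receptor KIT at 8.68 ± 0.092 and 51.1 ± 5.3 TPM (SD, n = 2). With Ceefourin 2 alone 1 was higher and 1 lower, at sums of 319 to 379 TPM in untreated and 309 to 360 TPM in Ceefourin 2 libraries. Mitochondrial genes took 2.55% and 3.94% of counts in untreated libraries, 9.61% and 4.53% after PMA, 8.32% and 4.94% after the combination, and 2.77% and 3.11% after Ceefourin 2 alone. The part of these shifts in the results was not tested. In bulk RNA, fewer cells with a transcript and less of it per cell cannot be told apart.

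**Figure D1:**
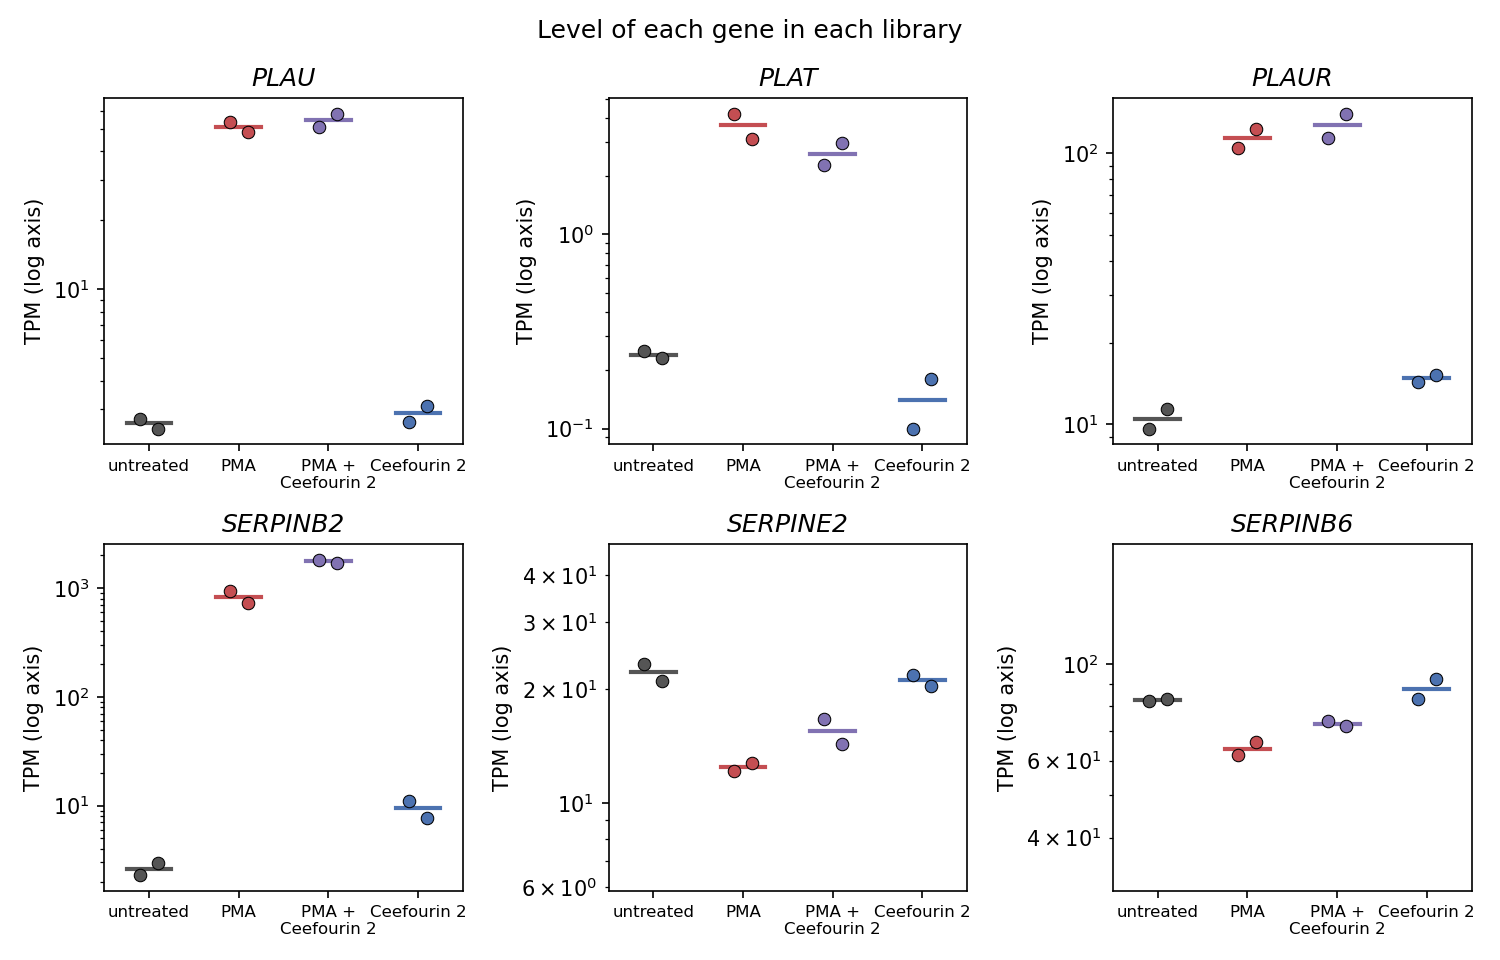
Level of each of the 6 genes in TPM (log axis, scaled per panel) in the 2 libraries of each group; points are libraries and bars are group means. SERPINB2 rises from 2.31 and 2.95 TPM in untreated to 1808 and 1701 TPM with PMA plus Ceefourin 2, while SERPINB6 stays between 61.7 and 92.1 TPM throughout.

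With PMA, both activators, the receptor and SERPINB2 were higher, and SERPINE2 was lower. Of the 6 genes, 5 were called in PMA against untreated, 4 higher and 1 lower, beside 53.6% of all tested genes called; 27.9% of all tested genes were called higher and 25.7% lower. On the normalized counts the 2 groups did not overlap for any of the 6, as for 77.9% of all tested genes. The genes were chosen with this contrast known, and nothing is read from these shares.

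Urokinase RNA was scarce in untreated cells. PLAU stood at 2.73 and 2.47 TPM in untreated, 53.8 and 48.7 TPM in PMA, 51.1 and 58.4 TPM in PMA plus Ceefourin 2, and 2.65 and 3.10 TPM in Ceefourin 2 libraries. All 4 libraries with PMA lay above all 4 without it, and within each of those sets the groups overlapped. The log2 fold change was 4.67 ± 0.16 (SE) for PMA against untreated, or 25.4-fold, and 4.57 ± 0.16 for PMA plus Ceefourin 2 against Ceefourin 2. With Ceefourin 2 the differences were 0.12 ± 0.13 on top of PMA and 0.22 ± 0.15 alone, neither of them called.

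PLAT, the other activator, was near the detection limit without PMA. Its expected counts were 9 and 11 in untreated, 416 and 266 after PMA, 208 and 520 after PMA plus Ceefourin 2, and 10 and 5 after Ceefourin 2 alone. In TPM these were 0.25 and 0.23, 4.19 and 3.11, 2.27 and 2.95, and 0.10 and 0.18. The 4 libraries with PMA were again the high ones, with PLAT the least abundant of the 6 genes in every library. The log2 fold change was 5.11 ± 0.34 (SE) for PMA against untreated and 5.45 ± 0.35 for PMA plus Ceefourin 2 against Ceefourin 2. The Ceefourin 2 differences of -0.28 ± 0.24 with PMA and -0.62 ± 0.49 alone were not called, the latter resting on at most 11 counts a library. On log2(TPM + 1), which understates the change of low genes, the PMA difference was 1.90 and still called. PLAU exceeded PLAT 10.9- and 10.7-fold in TPM in untreated, 12.8- and 15.6-fold in PMA, 22.5- and 19.8-fold in PMA plus Ceefourin 2, and 26.5- and 17.2-fold in Ceefourin 2 libraries. The last ratios rest on 10 and 5 PLAT counts.

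The receptor was more abundant than either activator in every library. PLAUR was at 9.64 and 11.4 TPM in untreated, 105 and 123 TPM in PMA, 113 and 140 TPM in PMA plus Ceefourin 2, and 14.3 and 15.3 TPM in Ceefourin 2 libraries. The PMA groups overlapped each other, and both Ceefourin 2 libraries lay above both untreated ones. PLAUR differed by 3.60 ± 0.16 log2 (SE) for PMA against untreated, or 12.2-fold, and by 3.40 ± 0.16 for PMA plus Ceefourin 2 against Ceefourin 2. The difference with Ceefourin 2 alone, 0.40 ± 0.15, was not called, though it was with replicate number as a block; that on top of PMA, 0.20 ± 0.14, was not called in either fit. The receptor stood 3.53- and 4.60-fold above PLAU in untreated libraries and 1.94- and 2.53-fold above it in PMA libraries.

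SERPINB2 had the largest PMA difference of the 6 genes and was the only 1 of them called for Ceefourin 2 in the fit without a replicate block. Its level was 2.31 and 2.95 TPM in untreated, 937 and 722 TPM in PMA, 1808 and 1701 TPM in PMA plus Ceefourin 2, and 11.1 and 7.71 TPM in Ceefourin 2 libraries. No 2 groups overlapped, in the order untreated, Ceefourin 2, PMA, PMA plus Ceefourin 2. The log2 fold change for PMA against untreated was 8.56 ± 0.28 (SE), or 377-fold, place 48 from the top among the 17314 tested genes. Among 20004 protein-coding genes ranked by TPM within a library, SERPINB2 took places 10169 and 9735 in untreated, 140 and 172 after PMA, 87 and 101 after PMA plus Ceefourin 2, and 7260 and 7998 after Ceefourin 2 alone. It took 0.263% and 0.254% of all expected counts with PMA plus Ceefourin 2.

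With Ceefourin 2, SERPINB2 was higher both with and without PMA. It was 1.10 ± 0.20 log2 (SE) higher in PMA plus Ceefourin 2 than in PMA, or 2.15-fold, and 1.81 ± 0.23 higher in Ceefourin 2 than in untreated cells, or 3.51-fold. These made 1 of 6 genes called in each comparison, beside 1.83% of all tested genes for PMA plus Ceefourin 2 against PMA and 1.68% for Ceefourin 2 against untreated. Normalized counts of the 2 groups did not overlap for 3 of the 6 genes in each, SERPINB2, SERPINE2 and SERPINB6 with PMA, and SERPINB2, PLAUR and PLAT without it, beside 45.4% and 40.7% of all tested genes. In mean level, Ceefourin 2 added 924 TPM on top of 830 ± 152 TPM with PMA, and 6.78 TPM on top of 2.63 ± 0.45 TPM in untreated cells (SD, n = 2). On the log2 scale the difference was smaller with PMA by 0.71 ± 0.30 (SE), and this interaction was not called; edgeR called it for 0 of the 6 genes, beside 0.0116% of all tested genes, as DESeq2 did, and 1 of the 6 had an unadjusted edgeR p below 0.05.

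Neither SERPINB2 call held in every fit that left out 1 library. Such a fit has less information on the spread between libraries. A lost call therefore does not show that 1 library carried the difference. The call for PMA plus Ceefourin 2 against PMA was lost when any 1 of the 4 libraries compared was left out, at 1.31 without PMA replicate 1, 0.92 without PMA replicate 2, and 1.09 and 1.12 without replicates 1 and 2 of PMA plus Ceefourin 2. Each of these fits leaves 1 library in a group, which is assumed to vary like the others. The call for Ceefourin 2 alone was lost without untreated replicate 1, at 1.59. Without replicate 1 of both PMA groups, the libraries with the highest mitochondrial shares (chosen after seeing the data), the values were 1.29 and 1.81 and neither was called, while 5 and 4 of the 6 genes were still called in the comparisons of PMA with no PMA.

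**Figure D2:**
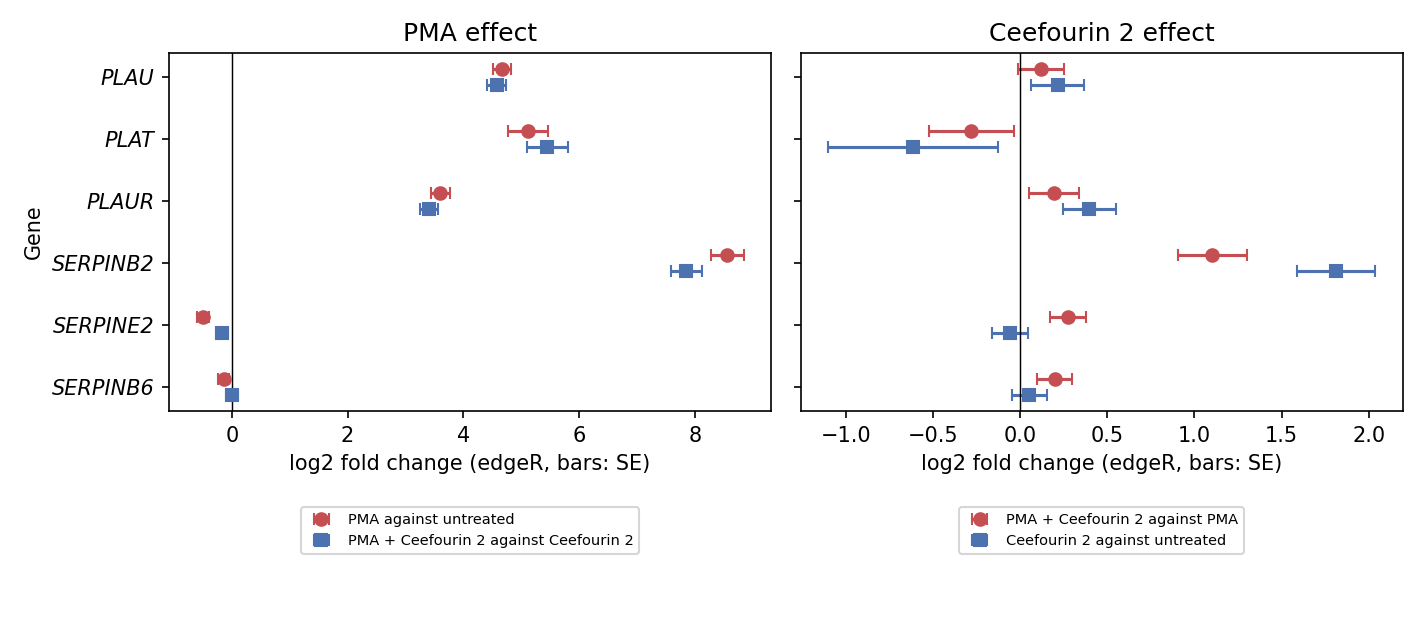
Log2 fold change of each gene (edgeR, error bars are SE) for PMA against no PMA on the left and for Ceefourin 2 against no Ceefourin 2 on the right, on separate axes. On the right, SERPINB2 stands at 1.10 with PMA and 1.81 without it, and the other 5 genes lie between -0.62 and 0.40.

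The other 2 serpins were well expressed without PMA. SERPINE2 was at 23.31 and 21.02 TPM in untreated, 12.1 and 12.7 TPM in PMA, 16.6 and 14.3 TPM in PMA plus Ceefourin 2, and 21.7 and 20.4 TPM in Ceefourin 2 libraries. The PMA libraries were the lowest and those with PMA plus Ceefourin 2 lay between them and the rest. The log2 fold change was -0.50 ± 0.10 (SE) for PMA against untreated. In PMA plus Ceefourin 2 against Ceefourin 2 it was -0.17 ± 0.10 and not called, which left 4 of the 6 genes called in that comparison, all higher, beside 53.5% of all tested genes called, 28% higher and 25.6% lower. Normalized counts did not overlap there for 5 of the 6 genes, beside 76.2% of all tested genes. The Ceefourin 2 differences of SERPINE2 were 0.27 ± 0.10 with PMA and -0.06 ± 0.10 without it, neither called.

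SERPINB6 was the most abundant of the 6 genes without PMA. Its level was 82.2 and 83.0 TPM in untreated, 61.7 and 66.2 TPM in PMA, 73.8 and 72.1 TPM in PMA plus Ceefourin 2, and 82.9 and 92.1 TPM in Ceefourin 2 libraries. In TPM the 4 libraries with PMA lay below the 4 without. On counts scaled by TMM the differences were -0.14 ± 0.10 log2 (SE) for PMA against untreated and 0.00 ± 0.10 for PMA plus Ceefourin 2 against Ceefourin 2, and neither was called. SERPINB6 was called lower after PMA under other scalings, at -0.32 with library totals, -0.37 on log2(TPM + 1) and -0.37 on log2(TPM + 0.1). Under those scalings the median of all tested genes after PMA was itself -0.19, -0.14 and -0.22 log2, against 0.00 with TMM. The PMA decrease of SERPINE2 was called under each of these scalings and was larger, up to 0.83 below zero on log2(TPM + 0.1).

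The order of the 6 genes by TPM differed between groups. In both untreated libraries it ran SERPINB6, SERPINE2, PLAUR, then SERPINB2 and PLAU, whose libraries overlapped, then PLAT. In all 4 libraries with PMA it ran SERPINB2, PLAUR, SERPINB6, PLAU, SERPINE2, PLAT. With Ceefourin 2 alone the untreated order was kept except that both SERPINB2 values lay above both PLAU values. SERPINB2 made up 2.14% and 2.76% of the summed TPM of the 3 serpins in untreated, 92.7% and 90.2% after PMA, 95.2% in each library given the combination, and 9.60% and 6.42% after Ceefourin 2 alone.

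Ratios between inhibitor and activator RNA were computed after the levels had been seen. SERPINB2 stood at 0.846 and 1.19 times PLAU in untreated, 17.4 and 14.8 times in PMA, 35.4 and 29.1 times in PMA plus Ceefourin 2, and 4.19 and 2.49 times in Ceefourin 2 libraries. No 2 groups overlapped in this ratio. PLAU stood at 0.117 and 0.118 times SERPINE2 in untreated and 4.44 and 3.83 times in PMA libraries, and at 3.07 and 4.08 times with PMA plus Ceefourin 2, where it overlapped PMA. These are ratios of RNA and not of active protein.

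**Figure D3:**
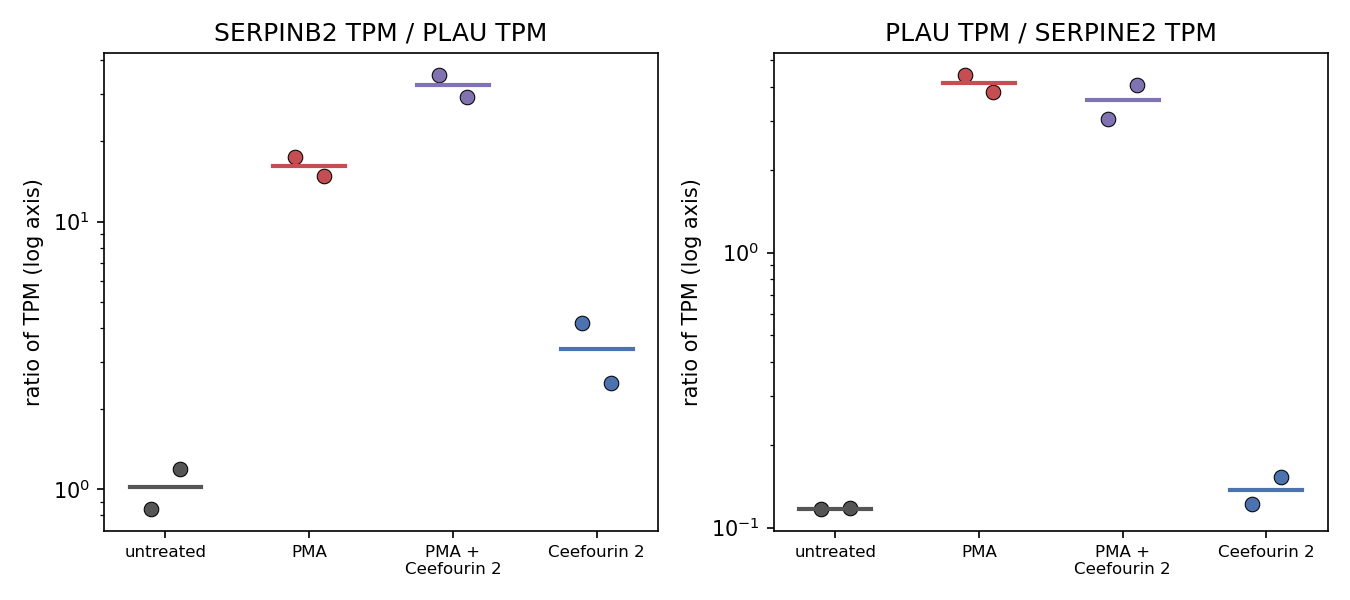
Ratio of SERPINB2 to PLAU (left) and of PLAU to SERPINE2 (right) in TPM, on log axes, for the 2 libraries of each group; bars are group means. The left ratio is highest with PMA plus Ceefourin 2, at 35.4 and 29.1, and the right ratio separates libraries with PMA from those without.

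The wider plasminogen system was described from a list of 56 other genes, of which 37 could be tested. The list was drawn up with earlier results of these data known. Its shares and adjusted p are therefore a description and no independent check on the pathway. After PMA 21 of the 37 were higher and 8 lower, or 78.4% of those tested, beside 53.6% of all tested genes, with a median log2 fold change of 1.22 against 0.00 over all tested genes. RNA of the substrate was hardly detected: PLG, plasminogen itself, had 6 counts over all 8 libraries, and VTN, the adhesion protein vitronectin, had 5. Of the 19 genes below the filter, 7 were listed at 0 in all libraries and none reached above 0.16 TPM.

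A2M, the broad protease inhibitor alpha-2-macroglobulin, rose with PMA by 9.89 log2 on counts (edgeR adjusted p = 5.99e-07), from 0.344 ± 0.071 to 323 ± 14 CPM, the TMM-scaled counts (SD, n = 2). In TPM its change was smaller, from 0.35 ± 0.042 to 88.9 ± 5.8 (SD, n = 2). Surface and binding proteins on the list changed in both directions with PMA. ITGB3, the beta-3 integrin of platelets, rose by 4.40 ± 0.10 log2 (SE; edgeR adjusted p = 5.99e-07), and its partner ITGAV, with which it forms the vitronectin receptor, rose by 2.85 ± 0.11 (edgeR adjusted p = 1.82e-06). MRC2, a collagen receptor that associates with PLAUR and is listed in the files as AC080038.1, rose by 2.69 ± 0.14 (edgeR adjusted p = 5.69e-06), and CD59, an inhibitor of complement, by 3.05 ± 0.12 (edgeR adjusted p = 1.92e-06). The plasminogen receptor ENO1 fell by 0.45 on the log2 scale (SE 0.08; edgeR adjusted p = 0.00183), and HMGB1, a DNA-binding protein also found outside cells, fell by 1.24 (SE 0.10; edgeR adjusted p = 3.64e-05). ITGAM, the leukocyte integrin alpha-M, fell by 3.90 (SE 0.18; edgeR adjusted p = 3.22e-06).

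Further genes called lower with PMA included HGF, a growth factor, by 2.68 (SE 0.24; edgeR adjusted p = 5.93e-05). LRP1, the receptor that takes up activator and inhibitor complexes, fell by 1.70 (SE 0.29; edgeR adjusted p = 0.00154). Its level was only 0.26 ± 0.085 TPM in untreated cells (SD, n = 2), and on log2(TPM + 1) and log2(TPM + 0.1) the difference, -0.08 and -0.44, was not called. F12, coagulation factor XII, fell by 0.67 (SE 0.16; edgeR adjusted p = 0.00879), and this call was lost without untreated replicate 1, at -0.59.

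In PMA plus Ceefourin 2 against Ceefourin 2, 23 of the 37 genes were higher and 8 lower, beside 53.5% of all tested genes called. THBD, thrombomodulin, was called there at 5.55 log2. Its level was 3.38 and 1.94 TPM in untreated, 38.2 and 31.9 TPM in PMA, 56.2 and 59.9 TPM in PMA plus Ceefourin 2, and 1.80 and 1.27 TPM in Ceefourin 2 libraries. This comparison shares its PMA plus Ceefourin 2 and Ceefourin 2 libraries with others described here.

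How many genes of the list were called for Ceefourin 2 depended on the test. On top of PMA, 1 of 37 was higher and none lower, or 2.7%, beside 1.83% of all tested genes (0.918% higher and 0.913% lower): F2R, the thrombin receptor PAR1, at 131 and 123 TPM in PMA and 259 and 205 TPM in PMA plus Ceefourin 2 libraries. That difference was 0.87 ± 0.14 log2 (SE; edgeR adjusted p = 0.0273). Without PMA, 3 of 37 were higher and 1 lower, or 10.8%, beside 1.68% of all tested genes (0.959% higher and 0.722% lower). These were ITGB3 at 1.31 ± 0.09 (edgeR adjusted p = 0.00151), MRC2 at 1.06 ± 0.14 (edgeR adjusted p = 0.0133), F2R at 0.77 ± 0.14 (edgeR adjusted p = 0.045) and ITGAM at -1.59 ± 0.16 (edgeR adjusted p = 0.00599). For the interaction edgeR called 0 of the 37 genes, with 8 at an unadjusted p below 0.05, and DESeq2 called 5. With replicate number as a block the called genes were 9 on top of PMA, 8 without PMA and 4 for the interaction, and with DESeq2 they were 6 on top of PMA and 8 without it. The shares of 1.83% and 1.68% belong to the edgeR fit without a block. Shares of all tested genes in these other fits are not given, so no excess is read from their counts.

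Some of these calls were lost in fits that left out 1 library. Such fits have less information on the spread between libraries, so a lost call does not show that 1 library carried the difference. The call of F2R on top of PMA was lost without PMA replicate 1 (0.94), PMA replicate 2 (0.81) or PMA plus Ceefourin 2 replicate 1 (0.69), and its call with Ceefourin 2 alone was lost without any 1 of the untreated, Ceefourin 2 or PMA libraries, at 0.64 to 0.89. MRC2 lost its Ceefourin 2 call without untreated replicate 1 (0.94) or replicate 2 (1.22), and ITGAM without untreated replicate 1 (-1.54). ITGB3 was called in every fit that left out 1 library.

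Other members of the serpin family were taken from a list of 33 genes, 5 of which are also in the plasminogen list; 12 could be tested. The 21 below the filter include 10 that were listed at 0 in every library, and none exceeded 0.28 TPM. After PMA 8 of the 12 were higher and 1 lower, or 75%, beside 53.6% of all tested genes. This list, too, was drawn up with earlier results of these data known, and its shares and adjusted p are a description. SERPINI1, neuroserpin, an inhibitor of tissue plasminogen activator, rose by 2.79 ± 0.19 log2 (SE; edgeR adjusted p = 1.53e-05), and SERPINH1, a collagen chaperone that inhibits no protease, by 0.86 ± 0.09 (edgeR adjusted p = 0.00017). SERPINB3 and SERPINB4, near-identical copies whose reads could be split between them, rose by 2.75 ± 0.46 and 3.18 ± 0.48 (edgeR adjusted p = 0.00148 and 0.000906), to 0.935 ± 0.064 and 1.28 ± 0.057 TPM in PMA (SD, n = 2). SERPINF1, which encodes pigment epithelium-derived factor, fell by 2.77 (SE 0.33; edgeR adjusted p = 0.000254).

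SERPINB1, an inhibitor of neutrophil elastase, was the 1 serpin of the 12 that edgeR called for Ceefourin 2. With replicate number as a block 3 of the serpins were called on top of PMA and 5 without it, and with DESeq2 3 and 4. Shares of all tested genes under the block or DESeq2 are not given, so no excess is read from these 4 counts. SERPINB1 was at 119 and 136 TPM in untreated, 122 and 161 TPM in PMA, 56.5 and 62.0 TPM in PMA plus Ceefourin 2, and 65.9 and 72.8 TPM in Ceefourin 2 libraries. All 4 libraries with Ceefourin 2 lay below the 4 without it. Against PMA it fell by 1.28 on the log2 scale (SE 0.17; edgeR adjusted p = 0.0151), and against untreated by 0.99 (SE 0.17; edgeR adjusted p = 0.0371), so 1 of 12 was called lower in each, or 8.33%, beside 1.83% and 1.68% of all tested genes. The call with PMA was lost without PMA replicate 2 (-1.04) or either library of PMA plus Ceefourin 2 (-1.19 and -1.38). The call without PMA was lost when any 1 of the untreated, Ceefourin 2 or PMA plus Ceefourin 2 libraries was left out, at -0.84 to -1.13. For the interaction edgeR called 0 of the 12, with 0 at an unadjusted p below 0.05, and DESeq2 called 0.

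**Figure D4:**
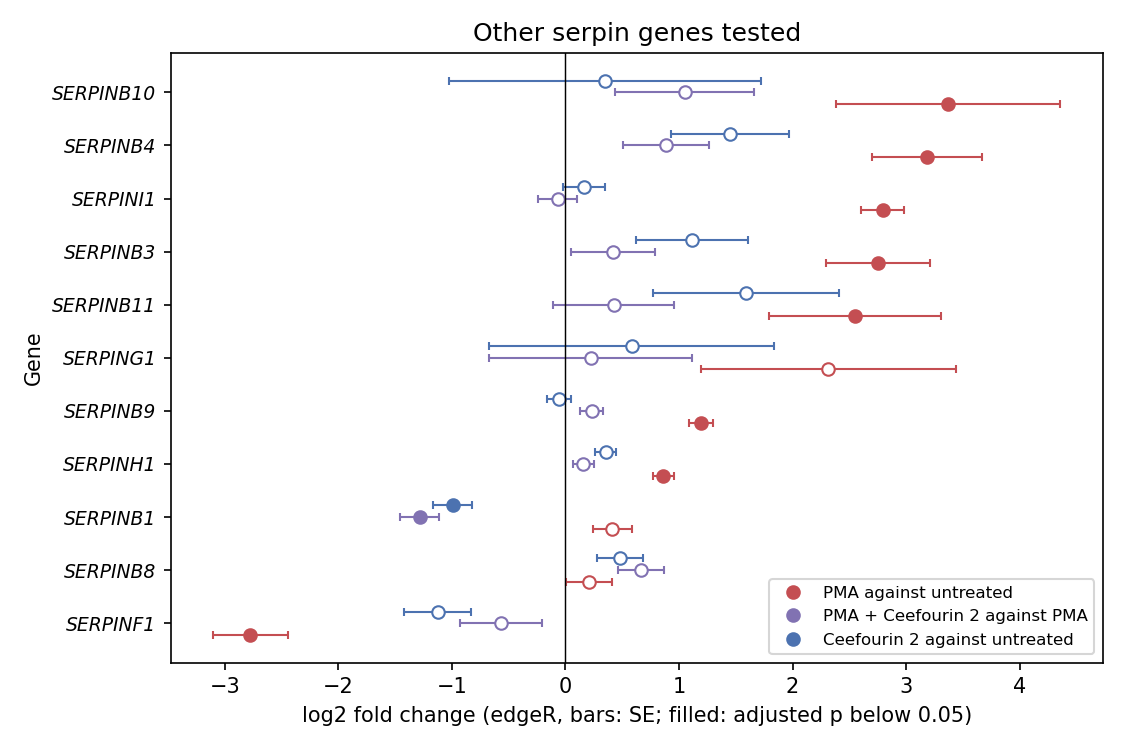
Log2 fold change (edgeR, bars are SE) of 11 other serpin genes that could be tested, for PMA against untreated and for Ceefourin 2 with and without PMA; filled points have an adjusted p below 0.05. SERPINB1 is the only plotted gene with filled points for Ceefourin 2, at -1.28 and -0.99.

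Chromosomal neighbours of 5 of the 6 genes were examined, and those of PLAT were not. SERPINB6 sits in a cluster on chromosome 6 with SERPINB9, which inhibits granzyme B, 44878 bases away, and SERPINB1, 106152 bases away. SERPINB9 rose with PMA, from 6.15 and 6.18 TPM to 11.7 and 12.0 TPM (1.19 ± 0.10 log2, SE; edgeR adjusted p = 5.09e-05), with no call for Ceefourin 2, whereas SERPINB1 was called for Ceefourin 2 and not for PMA (0.41 ± 0.17, edgeR adjusted p = 0.0732). On the other side of SERPINB6, NQO2, a quinone reductase, fell by 0.85 with PMA (SE 0.09; edgeR adjusted p = 0.000119) and RIPK1, a kinase of cell death signalling, rose by 0.79 ± 0.12 (edgeR adjusted p = 0.000963). The differences between these neighbours were not tested.

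Around SERPINB2 on chromosome 18, SERPINB7 reached a mean of no more than 0.04 TPM in any group and HMSD was listed at 0 in all libraries. SERPINB3, 209728 bases away, rose with PMA by 2.75 ± 0.46 log2 (SE, edgeR adjusted p = 0.00148), to 0.935 ± 0.064 TPM (SD, n = 2). SERPINB10, whose model overlaps that of SERPINB2, rose by 3.37 ± 0.99 log2 with PMA (SE, edgeR adjusted p = 0.0205) at a level of 0.20 ± 0.071 TPM (SD, n = 2). SERPINB2 stood at 830 ± 152 TPM in PMA libraries (SD, n = 2), and the part of shared reads in the SERPINB10 rise was not tested. Beside PLAU, VCL, the adhesion protein vinculin, rose by 2.43 ± 0.11 with PMA (edgeR adjusted p = 2.48e-06), CAMK2G fell by 0.99 (SE 0.15; edgeR adjusted p = 0.000758), and NDST2 rose by 0.88 ± 0.14 (edgeR adjusted p = 0.00107). Next to PLAUR, CADM4, a cell adhesion molecule, rose by 2.94 ± 0.20 (edgeR adjusted p = 1.48e-05) and ZNF428 by 0.49 ± 0.10 (edgeR adjusted p = 0.00407). SMG9 was not called with PMA (-0.28 ± 0.12, edgeR adjusted p = 0.0894), and IRGC was listed at 0. Around SERPINE2, FAM124B fell by 1.97 (SE 0.14; edgeR adjusted p = 2.15e-05) and MRPL44 by 0.32 (SE 0.09; edgeR adjusted p = 0.0156), while WDFY1 and CUL3 were not called.

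Genes were compared by the root mean square difference of log2 normalized counts over the 8 libraries, each gene centred on its mean. A prior count of 2, added before taking logs, understates the change of low genes. For each of the 6 genes the most alike genes were found among tested protein-coding genes. For SERPINB2 these were TFPI2, a protease inhibitor that also blocks plasmin, at 0.52, LY6G6C at 0.55 and STC1, the hormone stanniocalcin 1, at 0.59. TFPI2 followed SERPINB2 with PMA, from 0.76 to 1.06 TPM in untreated to 252 to 338 TPM in PMA libraries, and stood at 269 to 299 TPM with PMA plus Ceefourin 2, where the difference from PMA was -0.03 ± 0.20 log2 (SE). STC1 differed by 7.40 ± 0.25 with PMA, by 0.96 ± 0.18 with Ceefourin 2 on top of PMA and by 1.52 ± 0.21 with Ceefourin 2 alone. Both genes were chosen for their likeness over these libraries, so the values are a description.

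The nearest genes of PLAU were MSC (0.14), PPP1R14C (0.16) and ITGA7 (0.20), those of PLAUR were LRP12 (0.12), LRP10 (0.13) and SPRR2A (0.15), and those of PLAT were CAV1 (0.31), FRMD4A (0.31) and DLX3 (0.35). MSC and DLX3 were listed at 0 in all 4 libraries without PMA. Their fitted PMA differences were 8.37 ± 0.83 and 9.20 ± 0.81 log2 (SE), against 4.67 ± 0.16 for PLAU and 5.11 ± 0.34 for PLAT. The likeness of such low genes thus depends on the prior count. For SERPINE2 they were ZNF180 (0.05), FAM122B (0.06) and SRPK2 (0.06), and for SERPINB6 CREBBP (0.05), DHX40 (0.05) and TRNAU1AP (0.05). On log2(TPM + 1) the lists changed: TFPI2 and STC1 were still among the 3 nearest to SERPINB2, after GZMB, and LRP10 and LRP12 among those of PLAUR, while none of the 3 was shared for the other 4 genes. Among the 6 genes themselves, PLAU and PLAT differed by 0.47, PLAU and PLAUR by 0.58, and PLAUR and PLAT by 0.89, against 1.89 to 2.45 between SERPINB2 and these 3. SERPINE2 and SERPINB6, with the smallest PMA differences of the 6, differed by 0.18. Their Pearson correlation over the 8 libraries was 0.46, against 0.977 to 0.996 among PLAU, PLAT and PLAUR.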

How the data were processed

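RNA from 8 MEG-01 samples was sequenced by the authors from stranded mRNA libraries, with paired ends, per the labels' protocols. Per the submitters' processing notes, STAR 2.7, RSEM 1.3.1 and the build hg38 were used; the sources used here give neither the annotation release nor RSEM's strand setting. Expected counts, as deposited by the authors, are not normalized and were rounded here. The deposited TPM values, made by the authors with RSEM per the file headers, keep no depth.

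Counts were tested in R 4.3.3 with edgeR 4.0.16: filterByExpr left 17314 of 60754 genes, libraries were scaled by TMM (factors 0.92 to 1.083), and quasi-likelihood tests used 1 fit of all 8 libraries, with 4 residual degrees of freedom, Benjamini-Hochberg adjustment over all tested genes and a threshold of 0.05. The common biological coefficient of variation was 13.6%. TPM was tested with limma 3.58.1 on log2(TPM + 1) and log2(TPM + 0.1), and counts with DESeq2 1.42.0, as alternatives, beside other scalings and filters, a replicate block, and each library left out (the set of tested genes kept). Tests were also run on simulated counts, with changes set only in the PMA plus Ceefourin 2 group and no PMA effect. The outcome is not reported here, and nothing is read from it. Tables and figures were made with Python 3.11.15, pandas 2.3.3 and matplotlib 3.10.9.

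The 6 genes, the lists and the promoter motifs were chosen with earlier results of these data known. By the naming rule, the 6 genes were described in every comparison, with up to 6 called genes of each list and direction by smallest p, the 3 nearest patterns and the 2 nearest protein-coding genes on each side; positions and sequences of genes on chromosome 8 were not used here. Promoter sequences are RefSeq's (GRCh38.p14), matched by symbol for 5 of the 6 genes. Further genes counted in the list totals are not reported here by name.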

Additional observations from a re-analysis of the deposited data

How the results depend on the processing

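Calls for PMA against untreated kept their counts within 1.5 times under every alternative run, for the 6 genes and both lists. For PMA plus Ceefourin 2 against Ceefourin 2 the 6 genes did so too, and the lists were not rerun. The Ceefourin 2 and interaction counts did not keep within 1.5 times. Where no construction (fewer libraries or other genes tested) shows it, the cause was not tested. Shares of all tested genes called in the alternatives are not given, so no excess is read from the counts below. Of the 6 genes, the Ceefourin 2 against untreated count of 1 became 0 with only the libraries compared, 0 without replicate 1 of both PMA groups (chosen after seeing the data) and 0 to 1 when 1 library was left out; PMA plus Ceefourin 2 against PMA, also 1, became 0 without those replicate 1 libraries and 0 to 1 with 1 library left out; the interaction count of 0 became 1 with no filter.

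In the other serpins, the Ceefourin 2 against untreated count of 1 became 4 with DESeq2, 5 with no filter, 0 with only the libraries compared, 0 without both replicate 1 libraries, and 0 to 1 with 1 library left out. PMA plus Ceefourin 2 against PMA, also 1, became 3 with DESeq2, 4 with no filter, 0 without both replicate 1 libraries, and 0 to 1 with 1 library left out. In the plasminogen list, Ceefourin 2 against untreated moved from 4 to 8 with DESeq2, 11 with no filter, 2 with only the libraries compared, 1 without both replicate 1 libraries, and 1 to 4 with 1 library left out. PMA plus Ceefourin 2 against PMA moved from 1 to 6 with DESeq2, 8 with no filter, 3 on log2(TPM + 1), 2 on log2(TPM + 0.1), 0 without both replicate 1 libraries, and 0 to 1 with 1 library left out. The interaction moved from 0 to 5 with DESeq2, 6 with no filter, 1 with DESeq2 size factors, 1 with library totals, and 0 to 1 with 1 library left out.

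The share of PMA calls that were higher was 52.1% with TMM, 39.2% with library totals, 35.4% on log2(TPM + 1) and 36.0% on log2(TPM + 0.1).

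Groups share replicate numbers 1 and 2, but no label says what a number marks; same-numbered libraries' deviations correlated at 0.137 to 0.363 over the 6 pairs of groups. With replicate number as a block, the counts became 2 of the 6 genes (SERPINB2 and PLAUR, 0.40), 5 of the other serpins and 8 of the plasminogen list for Ceefourin 2 against untreated; 3 and 9 of the lists for PMA plus Ceefourin 2 against PMA; and 4 of the plasminogen list for the interaction. Depth limits PLAT most, at 5 to 11 counts without PMA.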
